A study of Mus musculus with 4 samples.

Results

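The 10 genes described here include *Bcr* and *Abl1*, the mouse counterparts of the partner genes of the *Bcr-Abl* fusion. *Stat5a* and *Stat5b* encode the STAT5 transcription factors. *Socs2*, *Cish*, *Pim1*, *Myc*, *Ccnd2* and *Bcl2l1* are all known as target genes of STAT5. The 10 genes were chosen by symbol among the 22911 genes that the probes of the arrays could be matched to. All 10 were represented, by 21 of the 56605 probes that are not controls, matched to a gene or not. RNA came from cells sorted out of *Bcr-Abl*+ tumors of C57BL/6Ncr mice aged 8 weeks, either wild type (Wt) or Sipa1 knockout (*Sipa1*-/-). The tumors were collected on day 12 after hematopoietic progenitor cells (HPCs) that carried *Bcr-Abl* and GFP had been placed under the skin in Matrigel. The injected HPCs were Wt bone marrow cells infected with a retrovirus for the human fusion. In both groups the tumor cells themselves were thus Wt, and the host alone differed in *Sipa1*. Whether the mouse *Bcr* and *Abl1* probes also detect RNA of the human fusion was not tested. Mesenchymal stroma cells (MSCs) were sorted as cells without GFP, CD45, Ter119 and CD31, and CD8+ T cells as cells without GFP that carried TCRb and CD8. Each of the 4 conditions has 1 array, from 5 mice per genotype, and the labels do not say whether the mice were pooled. The *Sipa1*-/- mice lack the gene in every cell, so sorted host cells differed in their own genotype and in that of their surroundings. Whether the sorts also held cells that came from the injected Wt HPCs was not tested. No difference below has a replicate check, and no test was made.

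The Bcr-Abl fusion is a tyrosine kinase that is always active, and it drives chronic myelogenous leukemia. One of its known effects is the phosphorylation of STAT5, which in normal cells is done by Janus kinases (JAKs) bound to cytokine receptors. Phosphorylated STAT5 enters the nucleus and binds a palindrome called GAS in target genes, among them genes for feedback inhibitors of the same receptors (*Cish*, *Socs2*), for kinases and cell cycle regulators (*Pim1*, *Myc*, *Ccnd2*) and for survival proteins (*Bcl2l1*). Arrays measure the RNA of these genes and not the phosphorylation of STAT5.

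The GAS palindrome, TTCNNNGAA, was looked for in the promoter windows of RefSeq on GRCm38.p6, from 250 bases before to 50 bases after the start of transcription. It is its own reverse complement, so 1 search covered both strands. Of the 10 genes, 7 had windows, 13 in all. *Socs2*, *Myc* and *Ccnd2* had no window and were not searched. *Cish* alone among the 7 held the motif, with 2 copies. Over all genes 8.30% of 32851 windows held 1 or more copies and 0.457% held 2 or more. For *Cish* they lie at chr9:107296629-107296678 on the plus strand, with the first copy beginning at the start site and the second beginning 12 bases into the transcript when the start site is counted as 1. The stretch is shown because the arrays gave *Cish* another pattern than *Socs2*, and capitals mark the motif. With no window for *Socs2*, the motif cannot be compared between these genes.
Cish: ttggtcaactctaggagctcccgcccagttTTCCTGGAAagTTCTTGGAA
Among 13 windows of other STAT5 target genes, 3 held the motif. The first shown is from *Socs3*, a further feedback inhibitor of cytokine receptors, at chr11:117969482-117969550 on the minus strand. The second is from 1 of the 2 windows of *Bcl6* that held it, at chr16:23981333-23981481 on the minus strand, and *Bcl6* encodes a transcriptional repressor. Both are shown as the genes of that list above the median signal that were at least 2-fold higher in *Sipa1*-/- MSCs.
Socs3: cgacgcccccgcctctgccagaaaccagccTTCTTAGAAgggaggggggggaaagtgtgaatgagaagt
Bcl6: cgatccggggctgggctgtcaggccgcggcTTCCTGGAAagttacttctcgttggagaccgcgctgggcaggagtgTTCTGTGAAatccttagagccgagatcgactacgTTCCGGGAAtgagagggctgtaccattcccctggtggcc
A match is a description of these letters, and the absence of one says nothing about sites farther away.

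Every level given here is the log2 of a probe's background-corrected signal minus the log2 of the 75th percentile of its array, so that 0 is the 75th percentile. Levels of different probes cannot be set against each other. All 21 probes were well above background on the 4 arrays, and 20 passed every spot flag on each. The exception, a *Stat5a* probe, was flagged on 3 arrays and does not enter the gene mean unless the flags are loosened. The error model of the scanner software gave a standard error of 0.20 to 0.29 for the difference of a probe between a pair of arrays. That error is technical and leaves out the spread between mice. Probes well above background made up 60.3% to 65.3% of spots on the 4 arrays, none was saturated, and the number of arrays limits the precision. Both *Sipa1* probes were lower on the *Sipa1*-/- arrays, by 1.25 and 1.59 in MSCs and by 1.67 and 2.05 in CD8+ T cells on the log2 scale, and stayed well above background. Fibroblast markers were well above background for 12 of 12 genes on every array, and T-cell markers for 11 of 12 in Wt MSCs and 12 of 12 on the other 3 arrays, so detection alone did not tell the populations apart. By level they differed: the median level of the T-cell markers was -2.22 and -1.77 in Wt and *Sipa1*-/- MSCs and 5.18 and 5.11 in Wt and *Sipa1*-/- CD8+ T cells. That of the fibroblast markers was 5.196 and 6.52 in MSCs and 0.87 and 2.57 in CD8+ T cells. Markers of other cells were present too. The median level of the granulocyte markers was 4.95 and 5.21 in Wt and *Sipa1*-/- MSCs and 3.84 and 2.43 in Wt and *Sipa1*-/- CD8+ T cells. The log2 of the summed level of the erythroid markers was 5.73 and 5.66 in MSCs and -0.34 and -1.32 in CD8+ T cells.

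Markers of other cells moved between the MSC arrays, and their values stand here for all MSC differences that follow. On the *Sipa1*-/- array 15 of 15 measured B-lineage genes were lower past 2-fold, and the log2 of their summed level was 9.51 in Wt MSCs, 5.89 in *Sipa1*-/- MSCs, 5.21 in Wt CD8+ T cells and 4.84 in *Sipa1*-/- CD8+ T cells. Of 16 B-lineage genes, 15 were still well above background in *Sipa1*-/- MSCs. The exception, *Rag1*, was not well above background on the CD8+ T arrays either. Common leukocyte genes were lower past 2-fold for 9 of 12 and cell cycle genes for 12 of 12, with median log2 differences of -2.01 and -1.99. Fibroblast genes were above 0 for 11 of 11, with a median of 1.14. Macrophage genes were higher past 2-fold for 4 of 9, with a median of 0.99, and granulocyte genes for 2 of 10, with a median of 0.27. Of all genes, 19.3% were higher and 11.3% lower past 2-fold between these arrays, so the granulocyte count is near the background share. Of 11 T-cell genes 4 were higher and 4 lower past 2-fold. The part of these shifts in the differences of *Bcr*, *Socs2* and *Bcl2l1* was not tested. In these bulk samples, fewer cells of a type and less RNA per cell cannot be told apart.

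**Figure D1:**
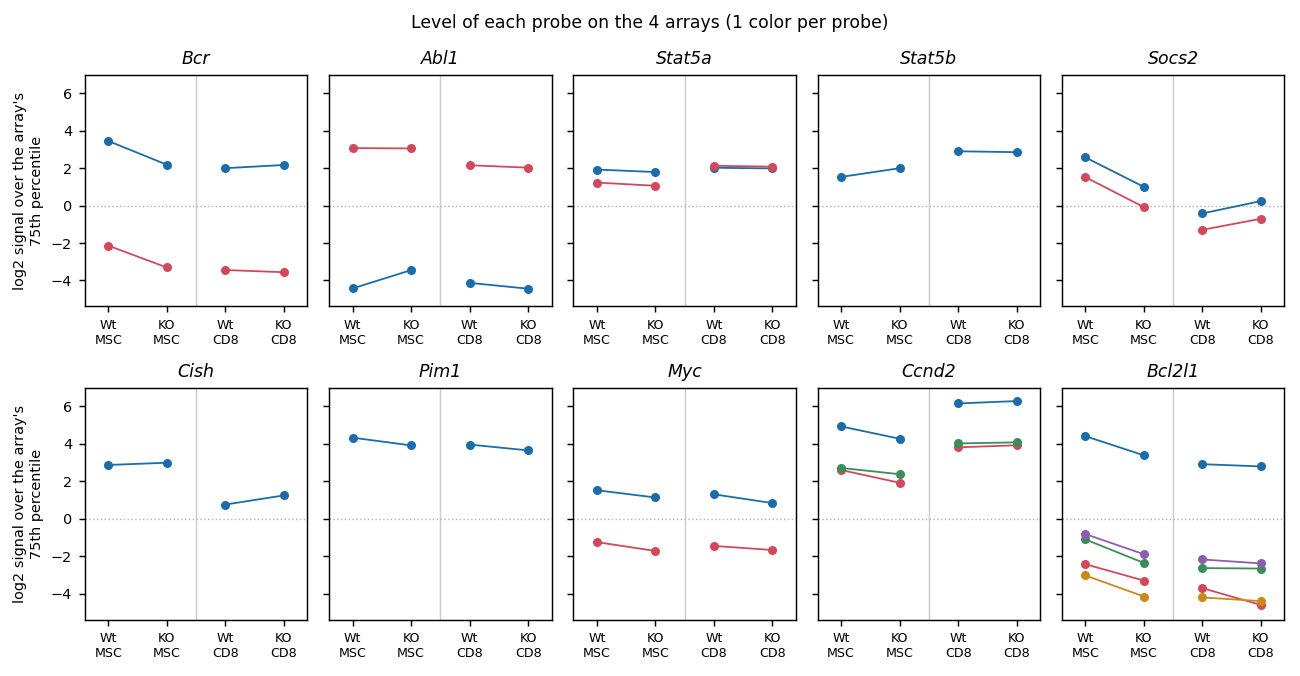
Level of each probe of the 10 genes on the 4 arrays, as log2 signal over the 75th percentile of the array (vertical axis), with Wt and knockout joined within a cell type, 1 color per probe, and bars for the error of the scanner's model, mostly smaller than the points. Both *Bcr* probes, both *Socs2* probes and all 5 *Bcl2l1* probes were highest on the array of Wt MSCs.

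The MSC arrays compared the cells sorted as MSCs from hosts with and without *Sipa1*, with the marker shifts given above. *Socs2*, *Bcr* and *Bcl2l1* were lower in *Sipa1*-/- than in Wt MSCs, past 2-fold, by 3.01-fold, 2.32-fold and 2.10-fold as means over their probes. Thus 3 of 10 genes were lower past 2-fold and 0 were higher, where 11.3% of all 15298 genes measured were lower and 19.3% higher past 2-fold. *Stat5a*, *Stat5b* and *Cish* were within 1.38-fold. The median log2 difference of the 10 genes was -0.42, beside 0.04 for all genes, and 7 of the 10 lay below 0. Of all genes, 8.24% had a lower difference than *Bcr*, 5.46% a lower one than *Socs2* and 10.1% a lower one than *Bcl2l1*. With 30.7% of all genes past 2-fold in either direction, the count of 3 is at the background share.

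**Figure D2:**
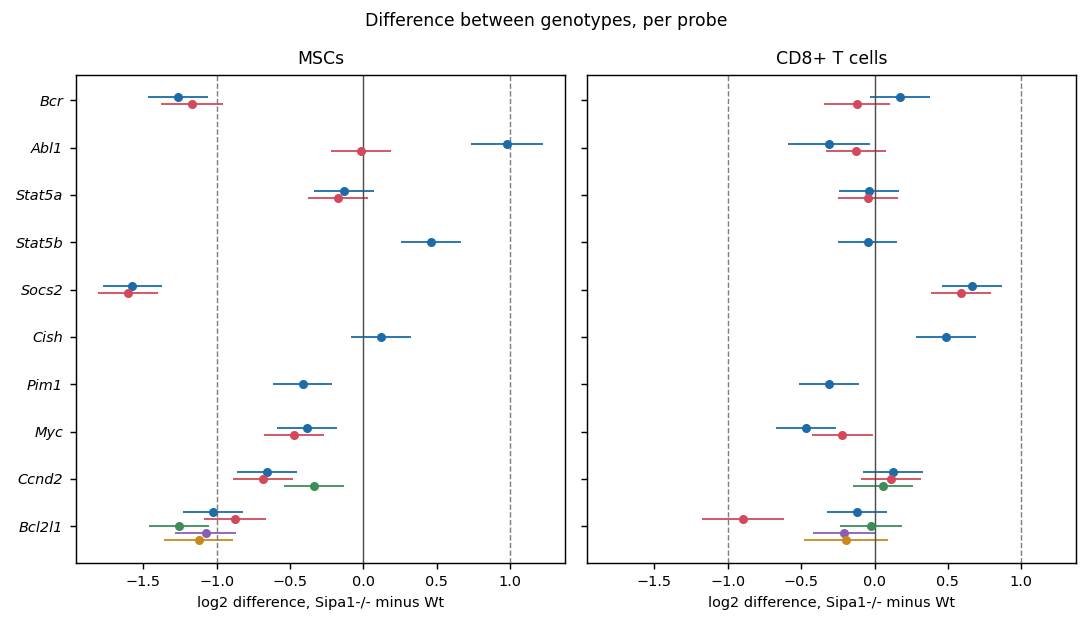
Log2 difference between genotypes (*Sipa1*-/- minus Wt, horizontal axis) for each probe in MSCs (left) and CD8+ T cells (right), with 1 standard error of the scanner's error model as bars, dashed lines at 2-fold and 1 color per probe within a gene. In MSCs both *Socs2* probes lie at -1.57 and -1.60 and 18 of 21 probes lie below 0, the flagged *Stat5a* probe among them, and in CD8+ T cells no probe passes 2-fold.

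*Bcr* is the mouse counterpart of the human gene that supplies the first part of the fusion. Its probe A_51_P162437 had a level of 3.45 in Wt MSCs, 2.18 in *Sipa1*-/- MSCs, 2.00 in Wt CD8+ T cells and 2.17 in *Sipa1*-/- CD8+ T cells. Wt MSCs stood apart from the other 3 arrays, which lay between 2.00 and 2.18 with less than 2 standard errors between neighbours. Its other probe, A_66_P106028, had levels of -2.14, -3.31, -3.44 and -3.56 in the same order of arrays. Both probes were thus lower in *Sipa1*-/- MSCs, with log2 differences of -1.27 and -1.17, and in CD8+ T cells they differed by 0.17 and -0.12. The raw signal of A_66_P106028 was 2.69 to 5.81 times the local background. With the normexp background correction, its difference in MSCs became -0.69 while that of A_51_P162437 was -1.22, and the mean of the gene became -0.96, under 2-fold.

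*Abl1* is the mouse counterpart of the human gene for the tyrosine kinase that is made constantly active in the fusion. Probe A_55_P2024808 had levels of 3.07 in Wt MSCs, 3.05 in *Sipa1*-/- MSCs, 2.15 in Wt CD8+ T cells and 2.02 in *Sipa1*-/- CD8+ T cells. It followed the cell type, and within each cell type the genotypes differed by less than 2 standard errors. Probe A_55_P2514703, whose raw signal was only 1.92 to 2.88 times the local background, had levels of -4.43, -3.45, -4.13 and -4.44 in the same order. The 2 probes disagreed in MSCs, with log2 differences of -0.02 and 0.98, and the mean over both, 0.48, turned to -0.02 with the brightest probe alone. *Abl1* therefore did not share the lower level of *Bcr* in *Sipa1*-/- MSCs on either probe.

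*Stat5a* and *Stat5b* encode closely related STAT5 proteins. The *Stat5a* probe A_66_P115018 had levels of 1.92, 1.79, 2.02 and 1.98 in Wt MSCs, *Sipa1*-/- MSCs, Wt CD8+ T cells and *Sipa1*-/- CD8+ T cells. None of its neighbours in order differed by 2 standard errors. The flagged probe A_55_P1990495 had levels of 1.23, 1.06, 2.12 and 2.08, so that it was lower in MSCs than in CD8+ T cells, unlike the first. The *Stat5b* probe A_55_P2031043 had levels of 1.53, 1.99, 2.90 and 2.85 in the same order. It was 1.38-fold higher in *Sipa1*-/- than in Wt MSCs, just past 2 standard errors, and its genotypes differed by 0.05 in CD8+ T cells. Neither gene passed 2-fold between genotypes.

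*Socs2* and *Cish* encode inhibitors of the SOCS family that bind activated cytokine receptors. The *Socs2* probe A_51_P107362 had levels of 2.57 in Wt MSCs, 1.00 in *Sipa1*-/- MSCs, -0.42 in Wt CD8+ T cells and 0.24 in *Sipa1*-/- CD8+ T cells. Probe A_55_P1992838 gave 1.52, -0.09, -1.29 and -0.70. On both probes the 4 arrays had the same order, and every step in it was over 2 standard errors. The difference between genotypes had opposite signs, -1.57 and -1.60 in MSCs and 0.66 and 0.59 in CD8+ T cells. *Socs2* was the one member past 2-fold in MSCs under every alternative processing run, with log2 differences from -1.73 to -1.38. The difference in CD8+ T cells stayed under 2-fold, and the contrast between the cell types was not tested.

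*Cish* gave another pattern. Its probe A_51_P470715 had levels of 2.88 in Wt MSCs, 2.996 in *Sipa1*-/- MSCs, 0.76 in Wt CD8+ T cells and 1.25 in *Sipa1*-/- CD8+ T cells. The MSC arrays lay together well above the CD8+ T arrays, and the genotypes differed by 0.12 in MSCs, under 2 standard errors. On the CD8+ T arrays *Cish* was 1.40-fold and *Socs2* 1.54-fold higher in *Sipa1*-/- mice, above the differences of 91.4% and 94.1% of the 14339 genes measured.

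*Pim1* encodes a serine/threonine kinase that promotes survival, and *Myc* a transcription factor of growth. The *Pim1* probe A_55_P2736570 had levels of 4.34, 3.92, 3.97 and 3.66 in Wt MSCs, *Sipa1*-/- MSCs, Wt CD8+ T cells and *Sipa1*-/- CD8+ T cells. The *Myc* probe A_52_P108346 had levels of 1.53, 1.14, 1.31 and 0.84. The other *Myc* probe, A_52_P278549, had levels of -1.24, -1.71, -1.44 and -1.66. On each of the 3 probes the *Sipa1*-/- array was lower than the Wt array in both cell types, by at most 1.39-fold. The difference between genotypes was over 2 standard errors in MSCs for *Pim1* and for A_52_P278549 and in CD8+ T cells for A_52_P108346, and under it in the remaining 3 cases. The mean differences of *Pim1* and *Myc* were -0.41 and -0.43 in MSCs and -0.31 and -0.34 in CD8+ T cells. Between the CD8+ T arrays 8.80% of all genes had a lower difference than *Pim1* and 7.39% a lower one than *Myc*.

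*Ccnd2* encodes cyclin D2, which drives cells from G1 into S phase. Probe A_55_P2917114 had levels of 4.94 in Wt MSCs, 4.28 in *Sipa1*-/- MSCs, 6.16 in Wt CD8+ T cells and 6.29 in *Sipa1*-/- CD8+ T cells. Probe A_52_P53906 gave 2.61, 1.93, 3.82 and 3.93, and probe A_65_P18532 gave 2.72, 2.38, 4.03 and 4.08. All 3 probes put *Sipa1*-/- MSCs lowest and the CD8+ T arrays highest. The log2 difference between genotypes was -0.33 to -0.68 in MSCs, under 2-fold, and 0.06 to 0.13 in CD8+ T cells. For A_65_P18532, at -0.33, the difference in MSCs was under 2 standard errors.

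*Bcl2l1* encodes Bcl-xL, which blocks apoptosis at the mitochondrion. Its probe A_55_P1974877 had levels of 4.41 in Wt MSCs, 3.39 in *Sipa1*-/- MSCs, 2.92 in Wt CD8+ T cells and 2.80 in *Sipa1*-/- CD8+ T cells. In Wt MSCs the other 4 probes ranged from -3.02 to -0.81, and in *Sipa1*-/- MSCs from -4.15 to -1.89. All 5 probes had the same order of arrays as A_55_P1974877, and each was lower in *Sipa1*-/- MSCs, by 0.87 to 1.26 on the log2 scale. Between the CD8+ T arrays 4 of them differed by -0.02 to -0.21, and A_51_P299454 differed by -0.90 at raw signals of 2.70 and 1.83 times the local background. With normexp A_55_P1974877 was at -1.04 in MSCs and the other 4 probes at -0.42 to -0.85, which took the mean of the gene to -0.73, under 2-fold. The series matrix took it to -0.86. Under normexp *Socs2* was the single member past 2-fold in MSCs.

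The CD8+ T arrays gave the same comparison of genotypes in the cells sorted as CD8+ T cells. None of the 10 genes reached 2-fold there, where 4.06% of all 14339 genes measured did, 2.66% of them higher and 1.4% lower. The mean differences of the genes ran from -0.34 for *Myc* to 0.63 for *Socs2*, with a median of -0.04 beside -0.02 for all genes. On the *Sipa1*-/- array fibroblast markers were higher past 2-fold for 10 of 12 genes, with a median of 1.62, and granulocyte markers lower past 2-fold for 7 of 10, with a median of -1.20. Of 14 B-lineage genes 3 were lower past 2-fold, with a median of -0.15. Their part in the smaller differences of the 10 genes was not tested.

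The arrays also allowed MSCs to be set against CD8+ T cells within a genotype, with the caution that these populations shared only the gate for cells without GFP and that the 2 comparisons use the same 4 arrays as those between genotypes. In Wt tumors *Socs2* was 7.47-fold, *Cish* 4.33-fold, *Bcr* 2.60-fold and *Bcl2l1* 2.58-fold higher in MSCs. *Stat5b* was 2.58-fold and *Ccnd2* 2.38-fold lower. These are 4 genes higher and 2 lower of 10, where 17.3% and 12.8% of 14225 genes were, 30.1% in either direction. Their median log2 difference was 0.34, beside -0.06 for all genes. In *Sipa1*-/- tumors *Cish* was 3.35-fold and *Abl1* 2.01-fold higher in MSCs and *Ccnd2* 3.75-fold lower, so that 2 genes were higher and 1 lower, where 21.9% and 18.7% of 14300 genes were, 40.6% in either direction. The median was 0.20, beside -0.18 for all genes. *Cish* and *Ccnd2* were past 2-fold in both genotypes. *Bcr*, whose log2 difference between cell types was 1.38 in Wt tumors, was at 0.14 in *Sipa1*-/- tumors, and *Socs2* went from 2.90 to 0.69. With the series matrix, *Stat5b* and *Ccnd2* fell under 2-fold in Wt tumors, at -0.91 and -0.80, and *Socs2* and *Bcl2l1* passed it in *Sipa1*-/- tumors, at 1.21 and 1.11. With normexp *Bcl2l1* fell under 2-fold in Wt tumors, at 0.83. *Abl1* in *Sipa1*-/- tumors fell under it with normexp, at 0.57, with median shift, at 0.79, and with quantile normalization, at 0.92. With median shift *Stat5b* passed 2-fold in *Sipa1*-/- tumors, at -1.08.

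**Figure D3:**
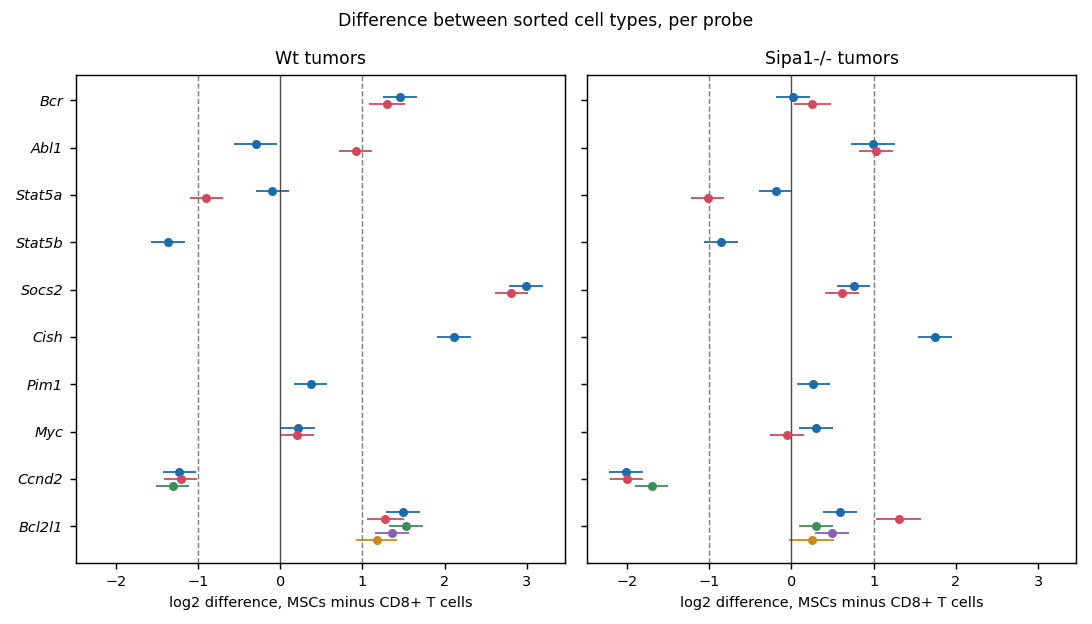
Log2 difference between cell types (MSCs minus CD8+ T cells, horizontal axis) for each probe in Wt (left) and *Sipa1*-/- tumors (right), with 1 standard error of the scanner's error model as bars and dashed lines at 2-fold. *Cish* lies above 2-fold and all 3 *Ccnd2* probes lie below it in both panels, while both *Bcr* probes pass 2-fold in Wt tumors alone.

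The rest of the pathway was read from 5 lists. Of 13 other STAT5 target genes, 12 were measured in MSCs, with 2 higher and 3 lower past 2-fold and a median log2 difference of -0.04. These 5 of 12 stand beside 30.7% of all genes in either direction on the MSC arrays, 19.3% higher and 11.3% lower, and the same shares apply to the lists that follow. The repressor gene *Bcl6* was higher in *Sipa1*-/- MSCs with a difference of 1.49 and the inhibitor gene *Socs3* with 1.04, and the cyclin D3 gene *Ccnd3* was lower with -1.79. The other 2 lower genes, named after their values were seen, were *Il2ra* at -3.32 and the kinase gene *Pim2* at -2.31. On the CD8+ T arrays 1 of 13 was past 2-fold, the cytokine gene *Osm* at -1.72, beside 4.06% of all genes in either direction. *Socs3* was at -0.71 there, in the other direction than in MSCs.

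Upstream of STAT5, 17 cytokine receptor genes were measured, of which *Il2ra* is also in the list of targets. In MSCs 4 were past 2-fold higher and 4 lower, with a median of -0.19. *Il7r*, the receptor chain for IL-7 on lymphoid cells, fell from 3.58 to -0.58 in level, and the growth hormone receptor gene *Ghr* was higher by 1.67 and *Il3ra* by 1.12 on the log2 scale. *Il2rg*, the shared gamma chain, had a difference of -0.79. Of 4 JAK genes, *Jak3* was lower by a difference of -1.16 and the others were under 2-fold, *Jak1* among them at 0.50. Of the 5 other STAT genes *Stat4* alone passed 2-fold, at -2.80. In CD8+ T cells 1 of the 17 receptor genes and 0 of the JAK and STAT genes passed 2-fold, beside 4.06% of all genes. The receptor chain gene *Il2ra* was at 0.49 there.

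Of 21 genes for adaptors, substrates and phosphatases of Bcr-Abl, 1 was higher and 3 were lower past 2-fold in *Sipa1*-/- MSCs, with a median of -0.05, a count of 4 beside 30.7% of all genes. The higher gene, named after its value was seen, was the adaptor gene *Bcar1* at 1.00. The lipid phosphatase gene *Inpp5d* (SHIP1) was at -3.02 and the Src family kinase gene *Lyn* at -1.77, both known for their high level in blood cells. The adaptor genes *Dok2* and *Dok1* were at 0.81 and 0.75, under 2-fold. In CD8+ T cells 0 of 20 passed 2-fold, beside 4.06% of all genes, and *Dok2* was just under 2-fold.

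**Figure D4:**
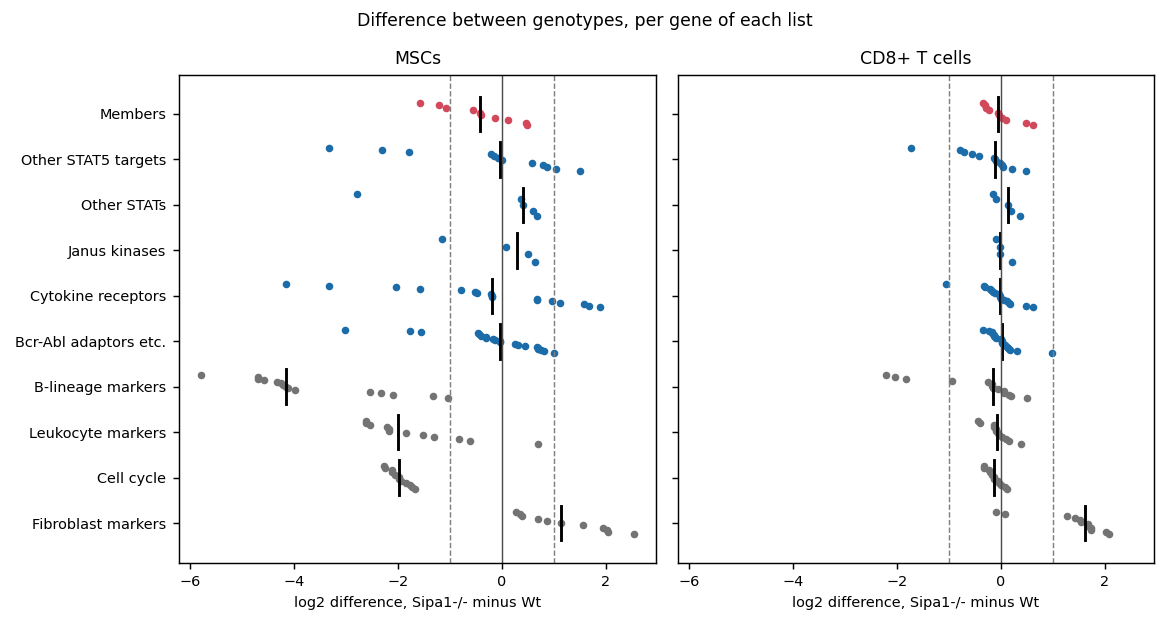
Log2 difference between genotypes (*Sipa1*-/- minus Wt, horizontal axis) for each measured gene of the 10 members (red), the 5 pathway lists (blue) and 4 marker lists (gray), in MSCs (left) and CD8+ T cells (right), with a black bar at the median of each list and dashed lines at 2-fold. In MSCs the B-lineage, leukocyte and cell cycle markers lie to the left with medians of -4.16, -2.01 and -1.99, and the member median is -0.42.

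The likeness of patterns was measured as the root mean square difference between gene profiles centred over the 4 arrays, as a description. Among the members, *Pim1* and *Myc* were nearest, at 0.08, followed by *Bcr* and *Bcl2l1* at 0.16, and *Cish* and *Ccnd2* were farthest, at 1.77. Among 6883 genes above the median signal, the 3 nearest to *Bcr* were *Elof1*, *Serinc3* and *Hibadh* (0.07 to 0.10), and those nearest to *Bcl2l1* were *Lgals9*, *Slc16a1* and *Hibadh* (0.08 to 0.11). *Socs2* had no neighbour closer than 0.29, with *2810025M15Rik*, *Pafah1b3* and *Myo1c* the nearest. For *Cish* they were *Inppl1*, *Tubb2b* and *Eng* (0.06 to 0.10). The nearest to *Abl1* were *Czib*, *Fth1* and *Ptp4a1*, to *Stat5a* *Afg3l1*, *Slc25a28* and *Coa8*, and to *Stat5b* *Rap1b*, *Il10rb* and *Pfkp*. The *Abl1* profile was the mean of its 2 probes, of which only the one with low signal was higher in *Sipa1*-/- MSCs. The nearest to *Pim1* were *Pus7*, *Psmd6* and *Iars*, to *Myc* *Pbdc1*, *Hsd17b12* and *Cbwd1*, and to *Ccnd2* *Ctsc*, *Actr3* and *Psmb8*.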

How the data were processed

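RNA of 4 samples was hybridized in one color (Cy3) to Agilent mouse arrays. The deposited intensity of each spot had been corrected for background by the authors with Feature Extraction, version 12.0.3.1 per the file headers and 9.1 per the submitters' processing notes. It was not normalized between arrays. The deposited series matrix holds these intensities times 1 constant per array. The values used here are log2 of the deposited intensity minus each array's 75th percentile over spots that are not controls. Probes passing all flags on both arrays of a pair were averaged per gene, and a log2 difference of 1 was the threshold. Symbols came from accessions matched to RefSeq (GRCm38.p6), for 57.6% of spots. Named in the text are the members, *Sipa1*, at most 2 genes of each pathway list per direction above the median signal, and the 3 nearest profiles per member. Outside this rule *Il2ra*, *Pim2*, *Jak3*, *Bcar1* and *Rag1* were named after their values were seen. The members and lists were chosen with earlier results of these data known. Computation used R 4.3.3 with limma 3.58.1 (normexp, offset 50), and Python 3.11.15 with numpy 2.4.6 and pandas 2.3.3. Alternatives were median shift, quantile normalization, the series matrix, normexp on the median spot signal, looser or no flags, 1 probe per gene (the brightest), and genes over the median signal.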

Additional observations from a re-analysis of the deposited data

How the results depend on the processing

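No paired analysis was possible because there is only 1 array per condition, and no replicate could be left out. Of 309 differences of single genes recomputed under the alternatives, 0 that had passed 2-fold changed sign, and 55 moved by more than their technical error. In MSCs *Socs2*, *Bcr* and *Bcl2l1* passed 2-fold between genotypes. With normexp on the median spot signal the count was 1, *Socs2*, with *Bcr* at -0.96 and *Bcl2l1* at -0.73, and with the series matrix it was 2, with *Bcl2l1* at -0.86. Between MSCs and CD8+ T cells of *Sipa1*-/- tumors, the series matrix gave 5 members past 2-fold in place of 3. The series matrix moved the median of all genes by 0.21 in MSCs, by 0.13 in CD8+ T cells and by 0.45 and 0.53 between cell types, and median shift moved it by -0.14, -0.15, -0.23 and -0.22. Under median shift, the series matrix, quantile normalization or normexp the signs of small differences of *Stat5a*, *Stat5b*, *Cish*, *Bcr*, *Ccnd2* and *Myc* turned, all under 2-fold. Looser flags and the cut at the median signal also changed how many genes were measured. Over all genes, 4691 of 15298 passed 2-fold between the MSC arrays. Under normexp 3020 of 15298 did, and 2208 of 7649 when genes below the median signal were left out. Between the CD8+ T arrays 582 of 14339 passed, and 207 of 14339 under normexp. There 1056 of 15270 passed with flags on at least 1 array, 1692 of 22911 with no flags and 137 of 7169 above the median signal. Between cell types 4278 of 14225 passed in Wt tumors, with 6870 of 22911 without flags and 1721 of 7112 above the median signal. In *Sipa1*-/- tumors 5802 of 14300 passed, with 2691 of 7150 above the median signal. The higher share of the genes past 2-fold in MSCs was 63.1%, 54.1% with median shift and 74.1% from the authors' series matrix. For CD8+ T cells the share was 65.5%, and 52.5% with median shift, 76.3% with the series matrix, 52.2% with normexp and 48.9% above the median signal. Between cell types it was 57.4% in Wt and 54.0% in *Sipa1*-/- tumors, 45.5% and 42.9% with median shift, and 76.6% and 76.3% with the series matrix. Low signal limits the probes of *Bcl2l1*, *Abl1* and *Bcr* with raw signals under 6 times the local background. The cause of these shifts was not tested.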
